A study of Danio rerio with 8 samples.

Results

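Respiratory complex I (NADH:ubiquinone oxidoreductase) was followed through its nuclear genes, those whose symbol begins with nduf, in heart cells of adult zebrafish with and without Hmga1a overexpression. The count table held 43 such entries among 21234 genes, 41 written in lower case and 2, NDUFB1 and NDUFAF8, in capitals, which were taken as members too. Controls numbered 4 libraries and Hmga1a overexpression 4 libraries. All 8 were labelled cmlc2:dsred (a red reporter under a cardiomyocyte promoter), cardiomyocytes, adult heart, and 14 days post tamoxifen, the drug that induced the overexpression. The ventricles were uninjured and were dissociated with enzymes. The labels give neither the transgene that carries Hmga1a, nor the genotype of the controls beyond the reporter, nor the number of fish in a library. The question was what Hmga1a, a chromatin protein with AT-hooks, changes in hearts without injury. With no statement that libraries came from separate fish, p-values here reflect variation from library to library, which may be partly technical.

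Complex I is the entry point of the mitochondrial respiratory chain. It takes electrons from NADH through a flavin and a row of iron-sulfur clusters to ubiquinone and pumps protons across the inner membrane. A peripheral arm in the matrix holds the NADH and ubiquinone modules, and a membrane arm holds the proton channels. The mitochondrial genome encodes the core of the membrane arm, and the nucleus encodes the rest, so the complex is built from transcripts of both genomes with the help of assembly factors. Heart muscle, which beats on oxidative metabolism, is among the tissues richest in it.

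The libraries held 49598 to 572295 estimated transcripts, the smallest being control 2, where 1 count equals 28.5 CPM (counts scaled to a common library size, with TMM factors). The mitochondrial genome supplied 56.1% ± 9.34 of the counts (SD, n = 4) in control libraries and 31.7% ± 2.98 in the others. The hmga1a transcript stood at 119, 28.5, 70.4 and 55.3 CPM across controls 1 to 4, against 75.8, 125, 121 and 123 CPM across overexpression libraries 1 to 4, a log2 fold change of 0.47 ± 0.30, adjusted p = 0.177 in edgeR's quasi-likelihood test, and dsRED rose (2.36 ± 0.17, adjusted p = 1.9e-12, edgeR). Of 10 cardiomyocyte markers 8 were in the table and 7 were tested. At an adjusted p under 0.05 (edgeR) 5 rose and 2 fell, beside 30.4% of all tested genes that rose and 29.2% that fell. The summed level of the 8 was 7363 to 8834 CPM in controls and 15814 to 20828 CPM with overexpression. The 2 that fell were ttn.2 (2259 ± 488 to 575 ± 80.8 CPM, mean ± SD) and ryr2b (155 ± 47.9 to 89.4 ± 26.7 CPM). Another of the 8 markers, myl7, an abundant heart myosin light chain, was counted at most once in any library. A listing at 0 or near it in this table therefore does not show that a gene was silent.

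Of the 43 complex I entries, 23 passed the filter on low counts, 8 held counts below it, and 12 were listed at 0 in all 8 libraries (27.9%, against 36.7% of all genes). All 23 that were tested rose with Hmga1a overexpression and 0 fell (edgeR's quasi-likelihood test, threshold 0.05 on the adjusted p), 22 of them at least 2-fold by the fitted value. Among all 2501 tested genes 30.4% rose. The log2 fold changes ran from 0.94 (ndufaf1) to 2.55 (ndufb11) with a median of 1.62, beside a median of 0.01 over all tested genes. In 21 of the 23, every overexpression library lay above every control, beside 25.6% of all tested genes that were higher without overlap. The other two, ndufv2 and ndufaf1, overlapped through control 2.

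Some of these genes were tested only because the overexpression libraries counted toward the filter. The controls alone would have carried 17 of the 23 past the filter, and all 17 rose, beside 29.8% of the 1266 genes for which the same holds. The other 6 (ndufv2, ndufaf1, ndufaf3, ndufa10, ndufb11 and ndufaf2) passed through the overexpression libraries. They include the 3 steepest rises, so the upper end of the range rests on genes with few control counts. In control 2 each of the 6 rested on 0 to 3 counts. Control libraries varied more than the others, with a median coefficient of variation over the 23 genes of 37.1% against 12.2%. The fitted fold changes weight libraries by depth, so that shallow control 2, the highest control for 19 of the 23 genes, pulls on the mean CPM of the controls more than on the fold change.

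**Figure D1:**
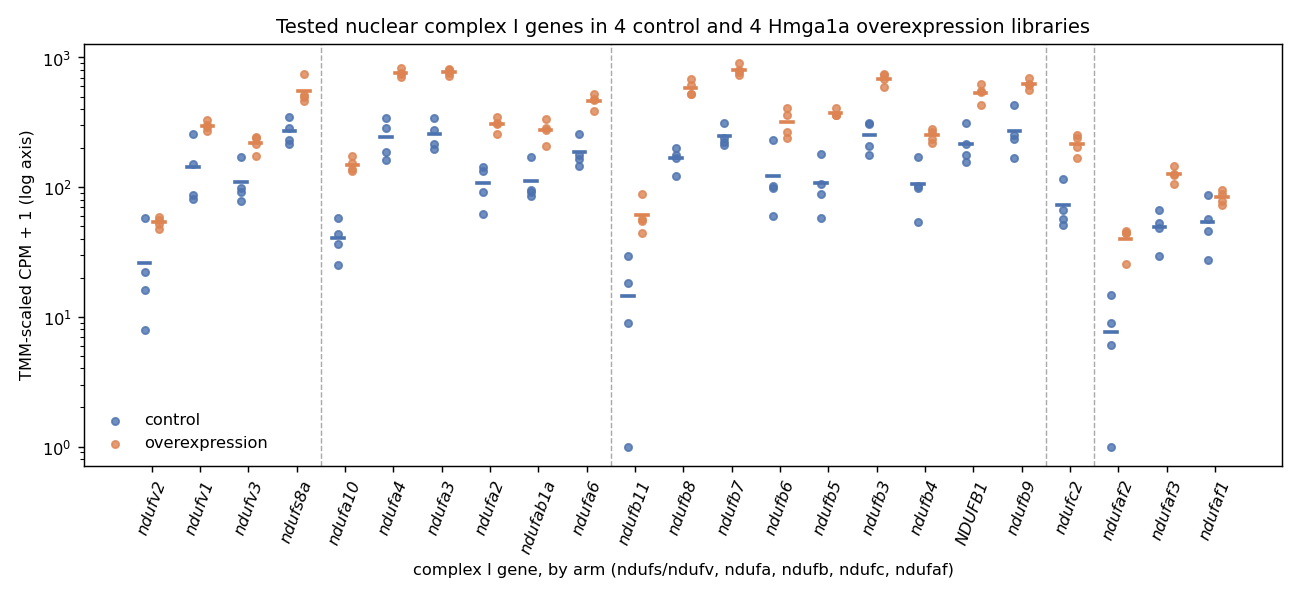
TMM-scaled CPM plus 1 (log axis) of the 23 tested nuclear complex I genes, by arm, with 1 point per library (4 controls, 4 overexpression libraries) and a bar at each group's mean. The overexpression points lie above the control points in 21 genes, and ndufv2 and ndufaf1 overlap.

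Core subunits of the peripheral arm are named ndufs and ndufv, although some of that name are accessory. Of 10 entries, 4 were tested and all 4 rose, beside 30.4% of all tested genes. Their log2 fold changes had a median of 1.30, and ndufv2 passed the filter only through the overexpression libraries. The gene ndufv1, whose product holds the flavin and the NADH site, was at 79.7, 256, 85.5 and 149 CPM across controls 1 to 4, against 269.6, 289.96, 328 and 299 CPM across overexpression libraries 1 to 4. Control 2 came close to the overexpression libraries without reaching them, and the rise was 1.37 ± 0.24, adjusted p = 2.0e-05 (log2 fold change ± SE, edgeR). The gene ndufs8a encodes an iron-sulfur subunit near the ubiquinone site and was at 212, 285, 231 and 346 CPM across controls 1 to 4, against 459, 511, 751 and 495 CPM across overexpression libraries 1 to 4. Its groups did not overlap, and its log2 fold change of 1.05 ± 0.20, adjusted p = 4.3e-05 (edgeR) was, after that of ndufaf1, the smallest among the tested members. The accessory subunit gene ndufv3 of the NADH module went from 109 ± 42.2 to 217 ± 31.5 CPM (mean ± SD, n = 4) and rose by 1.23 ± 0.24, adjusted p = 6.8e-05 in edgeR. The iron-sulfur subunit gene ndufv2 rested on few counts in the controls (8, 2, 3 and 2 in controls 1 to 4), with control 2 among the overexpression values in CPM, and rose by 1.62 ± 0.44, adjusted p = 0.00214 (edgeR). Scaled on contractile genes none of these 4 passed.

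Most other entries of this group could not be followed, since ndufs3, ndufs4, ndufs5, ndufs6 and ndufs7 were listed at 0 in every library.

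Accessory subunits named ndufa had 13 entries, of which 6 were tested and 6 rose, beside 30.4% of all tested genes. Their log2 fold changes had a median of 1.68, and ndufa10 passed the filter only through the overexpression libraries. The gene ndufa3, for a small membrane-arm subunit, was at 212, 342, 196 and 277 CPM across controls 1 to 4, against 762, 725, 797 and 812 CPM across overexpression libraries 1 to 4. The groups stood well apart, and the rise was 1.70 ± 0.17, adjusted p = 1.7e-09 (edgeR). For ndufa6, a LYR-motif subunit of the peripheral arm, the values were 143, 256, 176 and 162 CPM in the controls and 521, 468, 480.3 and 386 CPM with overexpression (1.48 ± 0.20, adjusted p = 2.6e-07, edgeR). The gene ndufa10, for a membrane-arm subunit with the fold of a nucleoside kinase, rose from 39.7 ± 13.7 to 148 ± 18.4 CPM, at 2.04 ± 0.31, adjusted p = 1.5e-06 (edgeR) the steepest of this group, from 16, 2, 7 and 7 counts in controls 1 to 4. The remaining tested gene of this kind, ndufa2, a thioredoxin-fold subunit of the NADH module, lay at 61.1 to 142 CPM in controls and 256 to 344 CPM with overexpression and rose by 1.67 ± 0.24, adjusted p = 7.9e-07 (edgeR).

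Paralogs make part of the ndufa group uncertain. The acyl carrier protein gene ndufab1a was at 85, 171, 90.6 and 93.3 CPM across controls 1 to 4, against 334, 206, 285 and 273 CPM across overexpression libraries 1 to 4. Its overexpression libraries all lay above the controls (1.53 ± 0.24, adjusted p = 2.7e-06, edgeR), while its copy ndufab1b was listed at 0 throughout. The gene ndufa4, whose mammalian counterpart is now assigned to complex IV, was at 162, 342, 186 and 287 CPM across controls 1 to 4, against 739.7, 706, 828 and 754 CPM across overexpression libraries 1 to 4. It rose by 1.77 ± 0.19, adjusted p = 4.1e-09 (edgeR), and its relatives ndufa4l and ndufa4l2b were listed at 0. How reads shared by such copies were counted is not known. The entries ndufa1, ndufa8 and ndufa9b were also at 0, ndufa9b being a pseudogene in the RefSeq table. The gene ndufa7 held at most 2 counts in a library.

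The ndufb subunits, which belong to the distal part of the membrane arm, had 11 entries. All 9 tested rose, each without overlap between the groups. Of all tested genes 30.4% rose and 25.6% were higher without overlap. The log2 fold changes of the 9 had a median of 1.64, and ndufb11 passed the filter only through the overexpression libraries. The gene ndufb7, for a subunit facing the intermembrane space, was at 223, 313, 211 and 239 CPM across controls 1 to 4, against 795, 734, 903 and 771 CPM across overexpression libraries 1 to 4. Its rise of 1.78 ± 0.17, adjusted p = 4.0e-10 (edgeR) had the smallest p of all complex I genes. The gene ndufb3, for a single-pass membrane subunit, was at 175, 313, 206 and 304 CPM across controls 1 to 4, against 739.7, 591, 730.5 and 679.7 CPM across overexpression libraries 1 to 4. The lowest overexpression value was well above the highest control (1.54 ± 0.19, adjusted p = 4.7e-08, edgeR). For ndufb9, another LYR-motif subunit, control 2 at 427 CPM stood above the other controls (167, 252 and 235 CPM). The overexpression libraries were at 617, 559.7, 624 and 691 CPM, and the log2 fold change was 1.43 ± 0.20, adjusted p = 3.4e-07 (edgeR).

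The gene ndufb11, a membrane subunit whose human counterpart is X-linked and mutated in a cardiomyopathy of infancy, had the largest fold change of all members. It was counted 3, 1, 0 and 5 times in controls 1 to 4 and 39, 36, 15 and 35 times in overexpression libraries 1 to 4, and its log2 fold change of 2.55 ± 0.51, adjusted p = 8.4e-05 (edgeR) carries the widest error but one. The 5 remaining members are small accessory subunits of the same arm. The gene NDUFB1 lay at 157 to 313 CPM in controls and 430.3 to 628 CPM with overexpression, and ndufb4 at 53.1 to 171 CPM and 218 to 279 CPM. For ndufb5 the ranges were 57.0 to 179.7 CPM and 359 to 409.7 CPM, for ndufb6 58.4 to 228 CPM and 239 to 408 CPM, and for ndufb8 121 to 199 CPM and 521 to 682 CPM. In none of the 5 did the groups overlap. They rose by 1.48 to 1.86 on the log2 scale (adjusted p at most 5.6e-06, edgeR). Of the 2 not tested, ndufb2 was listed at 0, and ndufb10 had a single count, in overexpression library 4. The membrane subunit gene ndufc2, the 1 ndufc entry, was at 55.8, 114, 50.3 and 65.7 CPM across controls 1 to 4, against 203, 167, 253 and 237 CPM across overexpression libraries 1 to 4. All overexpression values exceeded all control values (1.81 ± 0.26, adjusted p = 8.5e-07, edgeR).

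**Figure D2:**
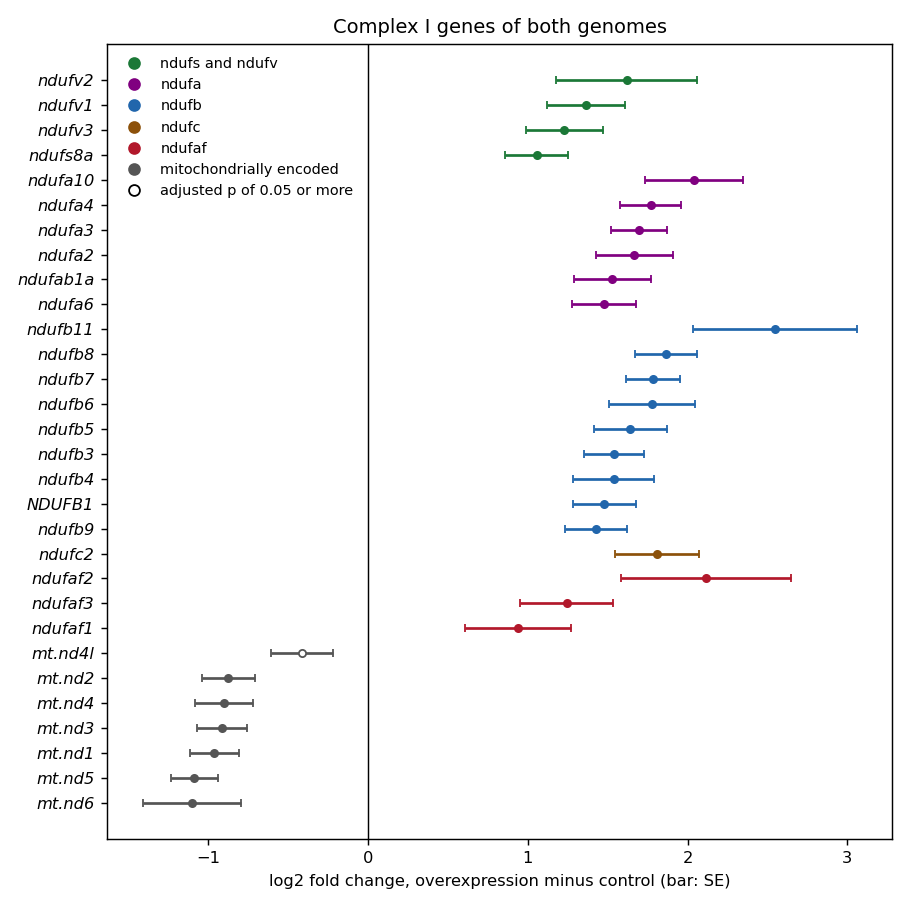
Log2 fold change (overexpression minus control, bars SE, edgeR, n = 4 per group) of the 23 tested nuclear and 7 mitochondrially encoded complex I genes, coloured by arm, with open points for an adjusted p of 0.05 or more. The nuclear genes lie between 0.94 and 2.55 and the mitochondrial ones between -1.10 and -0.41, with mt.nd4l open.

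Assembly factors named ndufaf build the complex without staying in it, and all 8 entries held counts. The 3 tested rose, their log2 fold changes having a median of 1.24, beside 30.4% of all tested genes that rose. None of the 3 passed the filter on the controls alone, so this count and median rest on genes that the overexpression libraries brought in. The gene ndufaf3, which acts with ndufaf4 on the ubiquinone module in human cells, was at 47.8, 28.5, 65.4 and 51.8 CPM across controls 1 to 4, against 125, 145, 124 and 104 CPM across overexpression libraries 1 to 4. The groups did not overlap (1.24 ± 0.29, adjusted p = 5.2e-04, edgeR). The gene ndufaf2, a paralog of subunit ndufa12 that works late on the NADH module, was counted 3, 0, 1 and 4 times in controls 1 to 4 and 11, 29, 15 and 28 times in overexpression libraries 1 to 4 (2.12 ± 0.53, adjusted p = 9.5e-04, edgeR). The gene ndufaf1, a factor of the membrane-arm intermediates, was at 26.6, 85.5, 55.3 and 44.9 CPM across controls 1 to 4, against 93.6, 71.7, 77.7 and 86.9 CPM across overexpression libraries 1 to 4. Control 2 fell inside the overexpression range, and the rise of 0.94 ± 0.33, adjusted p = 0.0158 (edgeR) was the smallest of the 23. It did not pass without control 1 (adjusted p = 0.204, edgeR).

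The 5 other ndufaf genes were too sparse for the filter. The gene ndufaf6, an early factor, was counted 0, 0, 0 and 2 times in controls 1 to 4 and 11, 10, 10 and 10 times in overexpression libraries 1 to 4. With no filter it passed (adjusted p = 0.00479, edgeR), as did ndufaf5, which modifies the ndufs7 subunit in human cells (adjusted p = 0.0257, edgeR). For ndufaf5 the controls held 0, 0, 2 and 1 counts, against 15, 11, 5 and 7 with overexpression. The factor gene NDUFAF8 had 1, 0, 0 and 2 counts in the controls, against 10, 9, 4 and 8, and ndufaf4 had 2, 0, 0 and 0, against 2, 3, 5 and 3. For ndufaf7, a methyltransferase in human cells, the counts were 0, 0, 0 and 1, against 3, 4, 0 and 5. NDUFAF8, ndufaf4 and ndufaf7 did not pass there, and their adjusted p lay between 0.0718 and 0.321 (edgeR). Without the filter 25 of 31 complex I genes rose and 0 fell, beside 6.91% higher and 7.66% lower among 13443 genes.

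Complex I factors without an nduf name were few in the table. Of 12 listed, 9 were present and 2 tested. Both rose, beside 30.4% of all tested genes, though coa1 had to differ to be tested. The gene aifm1, which takes part in import into the intermembrane space, went from 68.1 ± 21.0 to 205 ± 17.8 CPM, a rise of 1.64 ± 0.26 on the log2 scale (adjusted p = 2.7e-06, edgeR). The other was coa1, known in human cells for the assembly of complexes I and IV (2.24 ± 0.54, adjusted p = 5.8e-04, edgeR). At 7.97, 0, 20.1 and 3.46 CPM across controls 1 to 4 it passed the filter only through the overexpression libraries. Of 11 listed genes that make ubiquinone, the electron acceptor of complex I, 7 were present and only coq9 was tested, which rose (1.16 ± 0.20, adjusted p = 1.2e-05, edgeR).

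Grouped by place in the mammalian complex instead of by name, the 5 tested genes of the NADH module had a median log2 fold change of 1.48. The 3 of the proximal membrane arm had 1.81 and the 10 of the distal membrane arm, the acyl carrier protein included, 1.59. Of the ubiquinone module only ndufs8a was tested. Differences between arms or modules were not tested.

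Shares within the complex I transcript pool do not depend on how libraries are scaled, and are given as values without a test. In shallow control 2 a single count weighs heavily in this pool. Of the summed counts of the 23 genes, ndufb7 took 7.18% to 9.51% in controls and 9.01% to 9.73% with overexpression, and ndufa3 7.42% to 9.04% and 8.60% to 9.48%. The shares of ndufs8a were 6.54% to 10.5% and 5.38% to 8.10%, also overlapping. For ndufaf1 they were 1.14% to 2.09% in controls and 0.840% to 1.1% with overexpression. For ndufv3 they were 2.94% to 3.92% and 2.03% to 2.83%. In both genes the groups did not overlap, while in every other tested member the shares of the groups overlapped. Mean shares were higher with overexpression for ndufb8 (5.40 ± 1.37% to 6.84 ± 0.572%), ndufa10 (1.30 ± 0.443% to 1.74 ± 0.198%), ndufb11 (0.379 ± 0.284% to 0.713 ± 0.233%) and ndufaf2 (0.237 ± 0.185% to 0.461 ± 0.126%), each with overlapping groups. These genes were chosen after their shares were seen. Of them, ndufaf1, ndufa10, ndufb11 and ndufaf2 passed the filter only through the overexpression libraries.

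The mitochondrially encoded subunits of the same complex went the other way. All 7 were tested, 6 fell, 0 rose, and the median log2 fold change was -0.91, beside 29.2% of all tested genes that fell. The call of mt.nd6 was lost with library totals alone (adjusted p = 0.0622, edgeR) and without control 4 (adjusted p = 0.0784, edgeR), which left 5 of 7. The gene mt.nd5, for the most distal proton channel, was at 3709.6, 3020.5, 4176 and 4971 CPM across controls 1 to 4, against 1651, 1905, 2048 and 1969 CPM across overexpression libraries 1 to 4. Every overexpression value lay below every control (-1.09 ± 0.15, adjusted p = 2.3e-07, edgeR). The gene mt.nd1, for the subunit at the junction of the arms, was at 11070.4, 11996, 14354 and 15987 CPM across controls 1 to 4, against 6914, 6413, 6600.4 and 7517 CPM across overexpression libraries 1 to 4 (-0.96 ± 0.15, adjusted p = 3.3e-06, edgeR). The gene mt.nd6, encoded on the opposite strand from the others, was at 79.7, 85.5, 141 and 214 CPM across controls 1 to 4, against 40.1, 65.5, 71.9 and 77.6 CPM across overexpression libraries 1 to 4 (-1.10 ± 0.31, adjusted p = 0.00274, edgeR). Without knowledge of strand its counts cannot be told from antisense RNA of its neighbours.

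The membrane subunit genes mt.nd2 (-0.88 ± 0.17), mt.nd3 (-0.91 ± 0.16) and mt.nd4 (-0.90 ± 0.18) fell as well, with adjusted p of at most 9.8e-05 (edgeR). The counts of mt.nd4 used up to 96.2% and those of mt.nd2 up to 85.4% of the possible identifiers in a library, where the correction is imprecise. No nuclear complex I gene used over 12%. The gene mt.nd4l, which overlaps mt.nd4, was at 247, 228, 397 and 373 CPM across controls 1 to 4, against 245, 223, 236 and 268 CPM across overexpression libraries 1 to 4. Its groups overlapped and its log2 fold change was -0.41 ± 0.20, adjusted p = 0.0672 (edgeR).

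**Figure D3:**
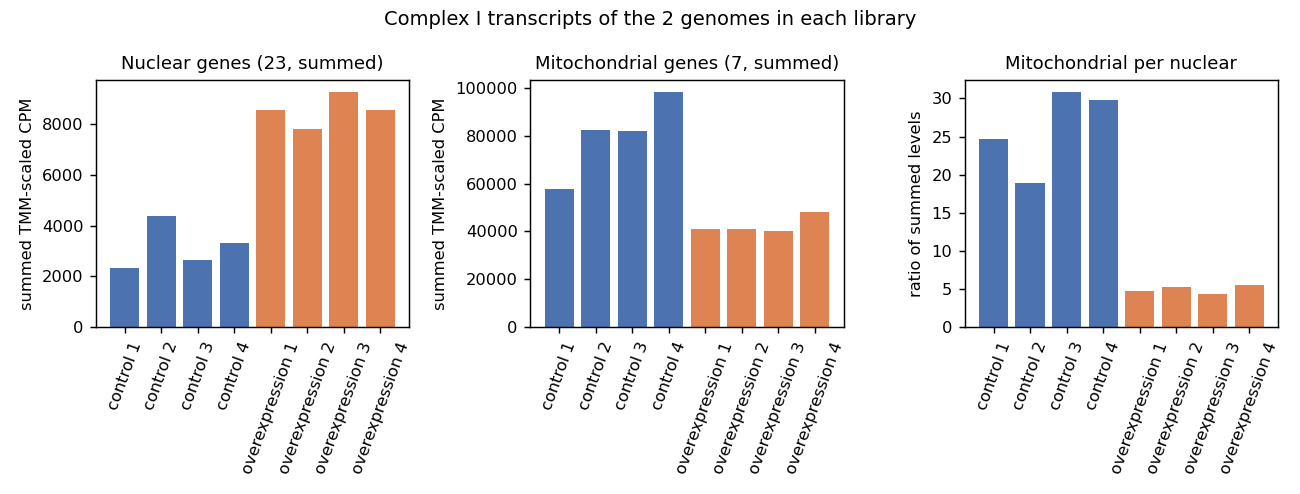
Bars give, for each of the 8 libraries, the summed TMM-scaled CPM of the 23 tested nuclear complex I genes, that of the 7 mitochondrially encoded ones, and the ratio of both sums. The ratio is 18.9 to 30.9 in controls and 4.33 to 5.61 with overexpression.

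Summed over the 23 nuclear genes, the level was 2339, 4359.8, 2646 and 3298 CPM in controls 1 to 4 and 8531, 7779, 9269 and 8558 CPM in overexpression libraries 1 to 4. Summed over the 7 mitochondrial genes it was 57638, 82209, 81768 and 98379 CPM and 40978, 40832, 40163 and 47980.1 CPM. The ratio of the mitochondrial to the nuclear sum was 26.1 ± 5.52 in controls and 5.0 ± 0.552 with overexpression (SD, n = 4). It does not depend on how libraries are scaled. Most of the mitochondrial sum came from mt.nd4 and mt.nd2 (33463 and 20157 of 79998 CPM, control means), where the correction is imprecise. The share of all mitochondrial counts in a library, complex I included, was 56.1% ± 9.34 in controls and 31.7% ± 2.98 with overexpression. As a share of nuclear counts alone, which leaves the mitochondrial RNA out, the 23 genes made up 0.634 ± 0.225% and 1.46 ± 0.0735%. Control 2, at 0.956%, was the highest control and lay below every overexpression library. These sums are given without a test, since the genes were chosen with results known.

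**Figure D4:**
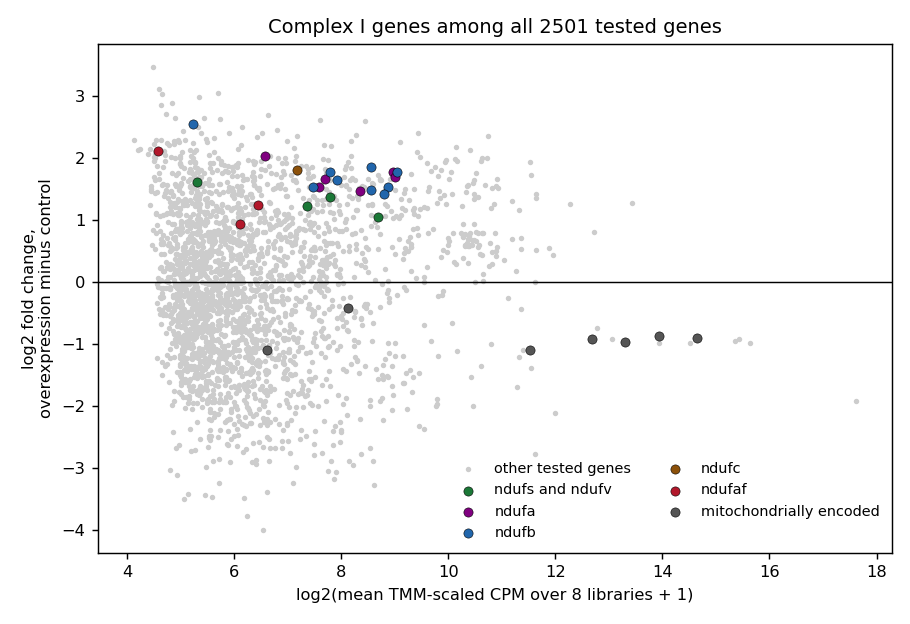
Log2 fold change (overexpression minus control) against the log2 mean TMM-scaled CPM plus 1 over 8 libraries for 2501 tested genes in grey, with complex I genes coloured by arm. The 23 nuclear members lie in the upper part of the cloud, the mitochondrially encoded ones below 0.

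Most nuclear genes of the other respiratory complexes rose too. Of those tested, 6 of 6 for complex II (2 assembly factors included), 4 of 4 for complex III, 13 of 14 for complex IV and 12 of 12 for complex V rose, with median log2 fold changes of 1.47, 1.51, 1.70 and 1.61. Among all tested genes 30.4% rose. The complex II factor gene sdhaf4, at 13.3, 0, 25.2 and 24.2 CPM across controls 1 to 4, passed the filter only through the overexpression libraries. So did the complex II subunit gene sdhb, which stood at 28.5 CPM, the equal of 1 count, in control 2. How many of the others passed on the controls alone was not counted. No difference between complex I and these was tested. Against all tested genes, the fold change of the 23 complex I members lay at the 76th percentile or higher, with 12 of them above the 90th. Among these 12, ndufv2, ndufa10, ndufb11 and ndufaf2 passed the filter only through the overexpression libraries. The 17 members that passed on the controls alone had a median log2 fold change of 1.54, beside -0.29 over all genes that did so.

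The authors' deposited table compares 3 libraries of each group (controls 1, 3 and 4 with overexpression libraries 2, 3 and 4). Of the complex I entries, 29 are in the authors' deposited table and 24 have an adjusted p under 0.05, each higher, beside 14.2% of its 7998 genes. For the 23 tested here the authors' deposited table gives log2 fold changes of 1.28 to 2.76. The 24th is ndufaf6, at 3.16 with an adjusted p of 0.00414 in the authors' deposited table. Of the 7 mitochondrially encoded subunits, 4 have an adjusted p under 0.05 in the authors' deposited table, each lower, beside 12.2% of its genes. The other 3 are mt.nd4 (-0.46, adjusted p of 0.151), mt.nd6 (-0.69, 0.133) and mt.nd4l (-0.15, 0.703), which did not pass in the authors' deposited table, while mt.nd4 and mt.nd6 did in the fit to all 8 libraries. Run on the authors' 6 libraries, the fit used here also called 6 of 7 lower, beside 808 of 2661 genes. The source of the difference from the authors' deposited table was not tested.

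The tested markers of other cell types fell. Among all tested genes 29.2% fell. All 4 tested endothelial markers fell (6 in the table, with a summed level of 235 to 379.7 CPM in controls and 55.7 to 110.2 CPM with overexpression, cdh5 at 0). None of these 4 (flt1, fli1a, vwf and egfl7) passed the filter on the overexpression libraries alone, so they were tested only because the controls counted toward it. Of fibroblast markers 2 of 2 tested fell (5 in the table, summed level 714 to 1421 and 131 to 189 CPM). Of leukocyte markers 2 of 2 tested fell (8 in the table, summed level 2593 to 4736 and 978 to 1406 CPM, coro1a and mfap4 at 0). One of them, mpeg1.1, likewise did not pass the filter on the overexpression libraries alone. Of epicardial markers 2 of 2 tested fell (5 in the table, summed level 726 to 967 and 330.5 to 371 CPM, tbx18 at 0). The red blood cell markers hbba1, hbba2, alas2 and slc4a1a were all at 0, and the 4 thrombocyte markers, itga2b and mpl at 0, stayed under the filter. The part of these cells in the rise of complex I genes was not tested, and in bulk libraries fewer cells of a type and less RNA per cell cannot be told apart.

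The size of the rise depended on the scaling, and the number of calls dropped with scaling on contractile genes and with thinning. When libraries were scaled on 12 contractile genes (7 of the 10 tested had risen themselves and 2 had fallen), which moved the median of all genes by -0.93 on the log2 scale, 12 of 23 complex I genes were still higher and 0 lower (of all genes 6.64% were higher and 51.7% lower), with a median of 0.67. The genes ndufb7 (0.84, adjusted p = 0.0014, edgeR), ndufa4 (0.84, adjusted p = 0.00213) and ndufa10 (1.08, adjusted p = 0.0106) were among those that passed. With every library thinned to the 49598 counts of control 2, 11 complex I genes could be tested, all 11 were positive, and 0 passed in edgeR (6.38% of all genes were higher). Of these 11, 2 had an unadjusted p under 0.05. With library totals alone 23 of 23 rose, beside 39.1% of all genes. Leaving control 2 out, 23 of 23 rose, beside 30.4% of all genes that rose and 30.2% that fell. Without control 1 it was 22 of 23, beside 23.6% of all genes.

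**Figure D5:**
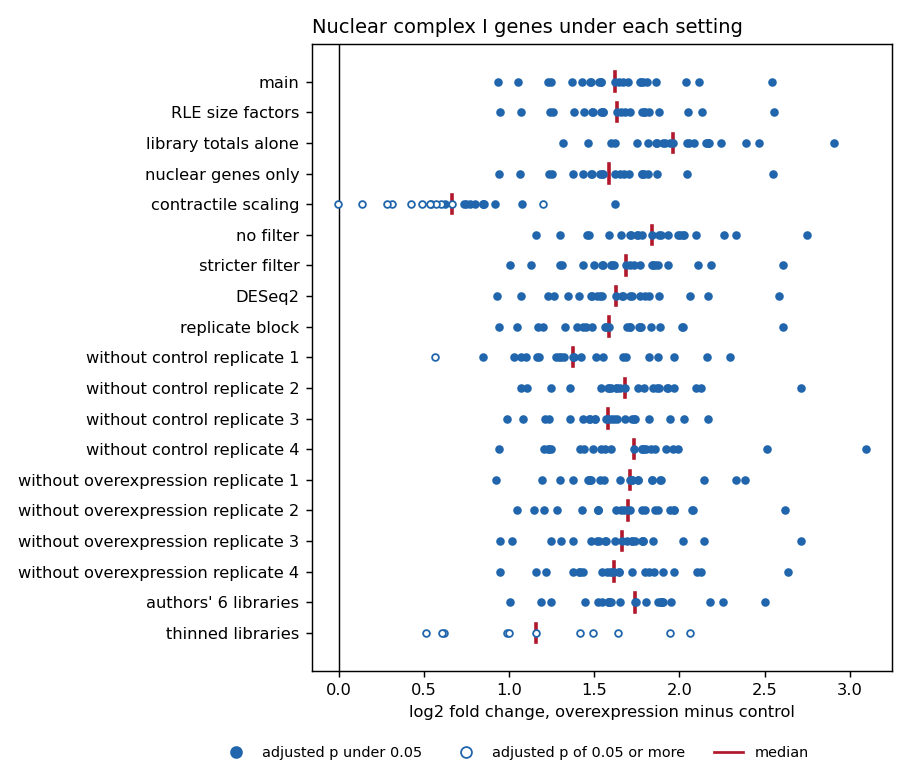
Log2 fold change (overexpression minus control) of the 23 nuclear complex I genes tested in the main setting, there and under 18 alternatives, filled where the adjusted p is under 0.05, with a red bar at the median. The median is 1.62 in the main setting, 0.67 with scaling on contractile genes and 1.16 with thinned libraries, where only 11 of the genes could be tested. The setting labelled stricter filter asks for 20 CPM in 4 libraries and is looser than the main one (3243 against 2501 genes tested).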

How the data were processed

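Polyadenylated RNA was counted in 4 control and 4 Hmga1a overexpression libraries, grouped and numbered by their titles. The authors deposited estimated counts per gene, numbers of unique identifiers corrected for repeated use: with 4096 possible identifiers, 100% of 61959 non-zero values turn back into whole numbers (tolerance 0.01). Per the submitters' processing notes, danRer11 and edgeR were used. For the aligner, the counting program, the annotation and strandedness, the sources used here give no statement. The authors also deposited an edgeR comparison which, per the file headers, holds log2 fold changes, p-values and adjusted p-values. All values of its count columns match controls 1, 3, 4 and overexpression libraries 2, 3, 4. In 2 further sheets, 12 per-sample columns were not used.

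Counts were rounded and 67 spike-in entries left out. In R 4.3.3, edgeR 4.0.16 was run on all genes (filterByExpr with the group, minimum count 10; TMM; robust quasi-likelihood test; no covariate; Benjamini-Hochberg adjustment over 2501 genes, threshold 0.05). The SE comes from the coefficient and its F statistic. DESeq2 1.42.0, other scalings and filters, a replicate block, libraries left out in turn and thinned libraries were the alternatives. No libraries agreed within sampling noise (chi-square per degree of freedom between replicates 3.49 to 11.5). The code was tested on data simulated with 1 fixed dispersion. It recovered 26.5% of 2-fold and 92.7% of 4-fold changes, with 8 false calls among 2630 genes tested. Named genes are, per arm, the 3 with the highest mean CPM and the largest and smallest fold change, every tested gene without a call, paralogs and all mitochondrially encoded subunits. Other members were named after their values were seen. The members, lists and several alternatives were chosen with earlier results of these data known.

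Symbols were matched to the RefSeq table of GRCz12tu, a build other than that of the files, for names and neighbours only, and 42 of 43 matched. In it 9 tested members overlap another gene (ndufb7, ndufv2, ndufb5, ndufb6, ndufa4, ndufaf1, ndufc2, ndufa6 and ndufb3), so their counts may hold reads of a neighbour. Positions and sequences are not analysed here, and values of 1 member are not reported here. Depth limits the precision in control 2, where 3 counts equal 85.5 CPM.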

Additional observations from a re-analysis of the deposited data

Results flagged for a closer look

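Among 60 groups of 4 values (30 complex I genes in both conditions), 3 had a library that stood far from the other three by Dixon's criterion, about as many as the 1 in 20 that chance gives. For ndufb5, a distal membrane-arm subunit, overexpression library 4 was at 409.7 CPM, above the next at 362 CPM. For the acyl carrier protein gene ndufab1a, control 2 was at 171 CPM and the next control at 93.3 CPM, and control 2 is the shallowest library. For the assembly factor gene ndufaf2, overexpression library 1 was at 24.5 CPM, below the next at 43.1 CPM.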

How the results depend on the processing

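Of 401 pairs of a tested nuclear complex I gene and an alternative, 378 kept direction and call, 22 lost the call and 1 changed sign (ndufaf1, -0.0036 with scaling on contractile genes). With that scaling the calls higher were 12 for complex I, 0 for ndufs and ndufv, 0 for ndufaf, 1 for the other assembly factors, 0 for ubiquinone synthesis and 23 of 36 for complexes II to V (35 in the main setting). All genes had 166 higher and 1292 lower, against 760 and 730. Medians there were 0.67 for complex I, 0.35 for ndufs and ndufv, 0.75 for ndufa, 0.74 for ndufb, 0.31 for ndufaf, -1.77 for mitochondrially encoded subunits, 0.66 for complexes II to V and -0.92 for all genes. In thinned libraries the calls higher were 0 for complex I and for its ndufs and ndufv, ndufa and ndufb arms, 10 for complexes II to V and 30 for all genes, with 64 lower. Medians there were 1.16, 0.98 for ndufa, -1.36 for mitochondrially encoded subunits and 1.17 for complexes II to V, and no ndufaf gene was left to test. Thinning left 470 genes in the test. With library totals alone medians were 2.07 for ndufa, 2.05 for ndufb, 1.62 for ndufaf, -0.46 for mitochondrially encoded subunits, 1.97 for complexes II to V and 0.39 for all genes, with 481 genes lower and mt.nd4l at 0.0059. Without the filter 5 of 8 ndufaf genes (median 2.23), 4 of 7 other assembly factors and 3 of 7 ubiquinone genes were higher, beside 6.91% of 13443 genes. Medians there were -0.62 for mitochondrially encoded subunits, 1.83 for complexes II to V and -0.14 for all genes. The stricter filter (20 CPM in 4 libraries) called 4 of 6 tested ubiquinone genes higher, beside 892 of 3243 genes. In controls coq3 reached at most 10.4 CPM and coq6 at most 7.97 CPM. These genes could therefore pass that filter only through the overexpression libraries, so the 4 calls are not independent of the filter. Leaving out 1 library at a time, complex I calls ran from 22 to 23 (median 1.38 to 1.73). All genes called higher then ran from 629 of 2670 (without control 1) to 861 of 2828 (without control 2). Ubiquinone calls ran from 1 to 2, as more of those genes passed the filter, and the median of complexes II to V from 1.36 (without control 1) to 1.69. DESeq2, RLE scaling, the filter at 20 CPM and the authors' 6 libraries each gave 23 complex I calls. Among all genes the calls higher were, in that order, 695 of 2501, 770 of 2501, 892 of 3243 and 778 of 2661. Beyond the effect of fewer or more genes tested, the causes were not tested.

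Samples with the same number did not vary together (correlations of deviations from -0.0597 to 0.0142 over the 4 pairs, 0 of 4 controls closest to its own number), so the numbers were not taken as pairs. With a replicate block 23 complex I genes were higher (median 1.59) and 6 mitochondrially encoded ones lower, beside 698 higher and 656 lower of 2501 genes.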
